A study of Mus musculus with 8 samples.

Results

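The genes that encode the 3 conjugating enzyme families of the liver, the glutathione S-transferases (GST), the UDP-glucuronosyltransferases (UGT) and the cytosolic sulfotransferases (SULT), were compared between CDA-HFD–fed control and Smo-KO livers. Members were taken by symbol: Gst followed by the class letter a, k, m, o, p, t or z and a number, Ugt followed by 1, 2 or 3, and Sult followed by a number from 1 to 6. Of the 25239 symbols in the count lists, 63 qualified, 22 of them GST, 20 UGT and 21 SULT. All 8 mice were adult males of the strain Smo tm2Amc/J, in which both copies of Smo, the signal transducer of the Hedgehog pathway, are floxed (Smo fl/fl, C57Bl6/J background). All ate the CDA-HFD, a high-fat diet that lacks choline, is restricted in amino acids and brings on steatohepatitis, for 6 weeks. At 1 week before sacrifice, 4 mice received the vector AAV8-TBG-Luciferase (control, livers 1 to 4, with the genotype label WT although they carry the floxed alleles) and 4 received AAV8-TBG-Cre (Smo-KO, livers 1 to 4). TBG is a promoter that works in hepatocytes, so other liver cells keep Smo, and whole-liver RNA was sequenced. Because these are bulk samples, fewer cells of a type and less RNA per cell cannot be told apart.

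These enzymes carry out phase II of detoxification. GSTs join the tripeptide glutathione to electrophiles and lipid peroxidation products. UGTs, in the membrane of the endoplasmic reticulum, move glucuronic acid from UDP-glucuronate to bilirubin, bile acids, steroids and drugs, and SULTs move sulfate from the donor PAPS to phenols, catecholamines, thyroid hormones, steroids and bile acids. Hepatocytes are a main site of all 3 families, and the products leave the cell through export pumps into bile or blood.

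The reads assigned to genes numbered 8203299 in the shallowest and 9999732 in the deepest library. Levels are given as CPM, read counts relative to library size after scaling between libraries, in which 3 reads equal 0.297 to 0.366 CPM, and this floor covers counting error only. Smo itself checked the labels: it stood at 8.17, 8.49, 8.75 and 8.21 CPM in control livers and at 5.67, 3.93, 4.27 and 4.37 CPM in Smo-KO livers. The groups did not overlap, and the log2 fold change was -0.88 ± 0.16 (SE, edgeR's quasi-likelihood test, adjusted p = 0.0957, exact permutation test, two-sided p = 0.0286, the smallest that 4 livers against 4 can give).

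The labelled tissue was checked against marker genes. All 8 hepatocyte markers were present, led by Alb, and their summed level was 31670, 26660, 27220 and 29080 CPM in control and 28410, 27810, 26790 and 26380 CPM in Smo-KO livers. Of these markers 1 of 8 (12.5%) had an unadjusted p under 0.05, close to the 13.8% of all genes tested. This was the urea cycle gene Cps1, which was lower in Smo-KO livers (log2 fold change -0.33 ± 0.10, SE, adjusted p = 0.218 in edgeR's test). Among the other cells of the liver, the lymphocyte list, led by Nkg7, had the highest share of genes with such a p. Its sum was 39.1, 38.4, 33.9 and 45.9 CPM in control and 19.4, 15.6, 28.7 and 26.0 CPM in Smo-KO livers. Of its 6 tested genes 4 (Cd3e, Cd8a, Cd4 and Nkg7, 66.7%) were lower with an unadjusted p under 0.05, beside 7.15% of all genes tested. Sums of the remaining lists overlapped between the groups. In the macrophage list (led by Cd5l) 1 of 6 genes had such a p (16.7%, beside 13.8% of all genes tested), Trem2, which was higher. In the stellate (led by Col3a1) and endothelial (led by Clec4g) lists 1 gene each had one (16.7% and 20%), Col1a1 and Pecam1, both lower. No gene had one among the 5 tested cholangiocyte markers (led by Spp1) and the 2 tested neutrophil markers (led by S100a9), and the neutrophil marker Ly6g was listed at 0 in all livers. At an adjusted p of 0.05, DESeq2's test, used as an alternative, called Trem2 (adjusted p = 0.000156) and the lymphocyte genes Cd3e, Cd8a and Nkg7 (adjusted p = 0.0399, 0.0144 and 0.0121). It called no other marker, and 1.26% of all genes tested. The part of these cell type markers in the transferase results was not tested.

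Of the 63 genes, 41 had enough reads to be tested: 20 of 22 GST, 14 of 20 UGT and 7 of 21 SULT. In edgeR's test no transferase passed an adjusted p of 0.05, nor did any of the 12977 genes tested (0%), of which 1797 had an unadjusted p under 0.05 (13.8%). DESeq2's test called 163 of all genes (1.26%) and 1 transferase, Gstt2, at an adjusted p of 0.05. Of the 41 transferases, 10 had an unadjusted p under 0.05 (24.4%), 5 of them higher and 5 lower, where 6.7% of all genes tested were higher and 7.15% lower with such a p. On average 23 of the 41 were higher, as were 49.9% of all genes tested. By family the share was 15% for GST, close to the 13.8% of all genes, 21.4% for UGT and 57.1% for SULT. The median log2 fold change was 0.04 for GST, -0.10 for UGT and 0.34 for SULT, beside -0.00084 over all genes tested. With 1 liver left out it ran from -0.01 (without control liver 3) to 0.09 for GST, from -0.16 to -0.003 (without Smo-KO liver 4) for UGT and from 0.24 to 0.40 for SULT. Groups did not overlap for 3 of the 41, beside 7.37% of all genes tested: Gstt2 and Sult1b1 on the higher side, where 3.03% of all genes lay, and Gstm7 on the lower side, where 4.34% lay. For the other 7 of the 10 the exact permutation test, two-sided, gave p = 0.0857 for Gstm4 and Sult1e1, 0.114 for Sult1a1, Sult1d1 and Ugt1a6b, 0.143 for Ugt1a6a and 0.171 for Ugt1a9. Whether the families differ from each other was not tested.

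**Figure D1:**
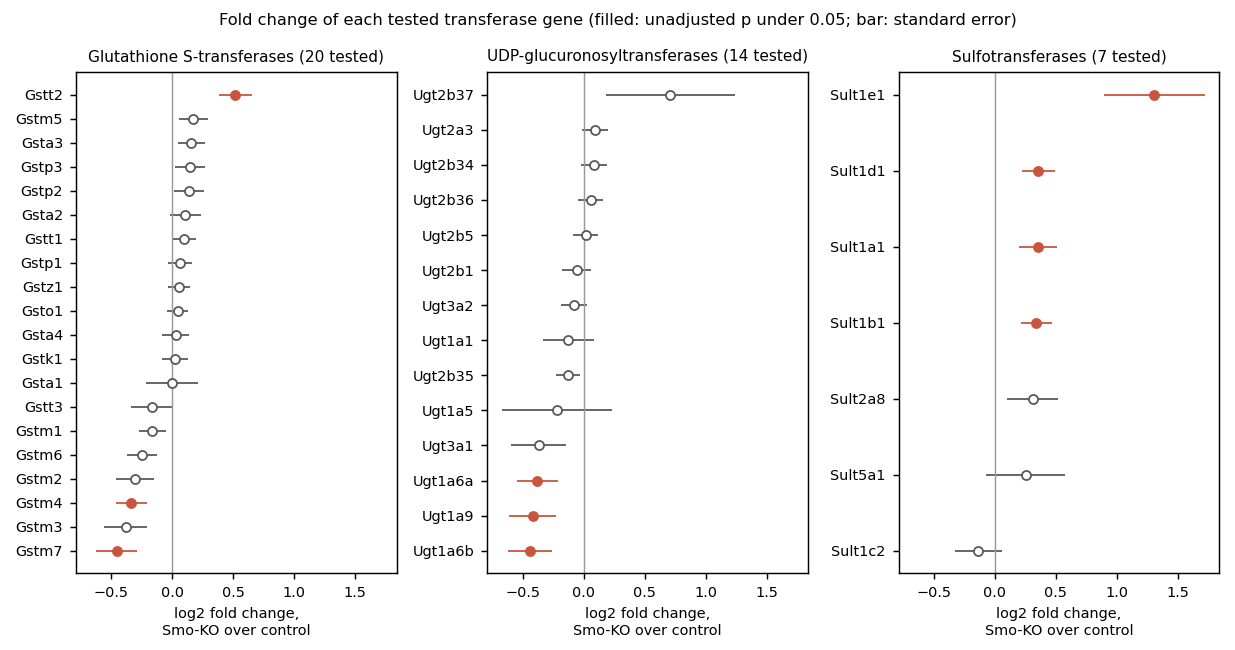
Log2 fold change of Smo-KO over control livers (horizontal axis) for each tested gene of the 3 families, with standard errors as bars and filled points for an unadjusted p under 0.05. The 3 filled UGT points lie on the lower side, the 4 filled SULT points on the higher side, and the GST points on both.

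Each family was dominated by a few genes. The 22 GST genes together held 1.03% of all reads in controls and 0.982% in Smo-KO livers, the UGT genes 0.294% and 0.293%, and the SULT genes 0.0533% and 0.0672%. Divided by exon length, so that genes can be ranked, the highest GST level over the 8 livers was that of Gstm1, a mu-class enzyme, at 2378 ± 294 CPM per kb (SD, n = 8). Below it came the pi-class Gstp1 at 1664 ± 133 CPM per kb and Gstp3 at 1065 ± 141 CPM per kb, the mu-class Gstm3 at 934 ± 215 CPM per kb and the alpha-class Gsta3, known in mice for its activity toward aflatoxin, at 631 ± 73.4 CPM per kb. The livers' values of Gstm1, Gstp1 and Gstp3 did not overlap, whereas those of Gstp3 and Gstm3, and of Gstm3 and Gsta3, did. Gstp3 and Gstm3 stood in opposite order in the 2 groups: Gstm3 was at 1057 ± 151 and Gstp3 at 1012 ± 177 CPM per kb in control livers, and at 811 ± 212 and 1119 ± 87.1 CPM per kb in Smo-KO livers (SD, n = 4 each).

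Among UGT genes, Ugt2b36 had the highest level per length at 400.2 ± 36.6 CPM per kb, followed by Ugt2b5 at 254 ± 24.4 CPM per kb. These ranges overlapped neither with each other nor with those of the genes below. Ugt2b34, Ugt3a2 and Ugt2b35 lay close together at 134 ± 14.6, 114 ± 12.9 and 105 ± 10.9 CPM per kb, and their ranges overlapped. UGT2B enzymes act on steroids and bile acids, while UGT3A enzymes use UDP-sugars other than UDP-glucuronate. Sult1a1, the phenol sulfotransferase, led the SULT genes at 197 ± 40.2 CPM per kb, with no overlap with the genes below. Sult2a8, a bile acid sulfotransferase, at 60.4 ± 17.2 CPM per kb and Sult1d1, which acts on catecholamines, at 55.5 ± 11.3 CPM per kb overlapped, and so did Sult1b1, which acts on thyroid hormones, at 9.87 ± 1.85 CPM per kb and Sult1c2 at 5.71 ± 1.16 CPM per kb. No level per length was computed for the UGT1A genes, Ugt2a1, Ugt2a2 and Gstz1, because under 80% of their exon sequence belongs to 1 gene alone.

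**Figure D2:**
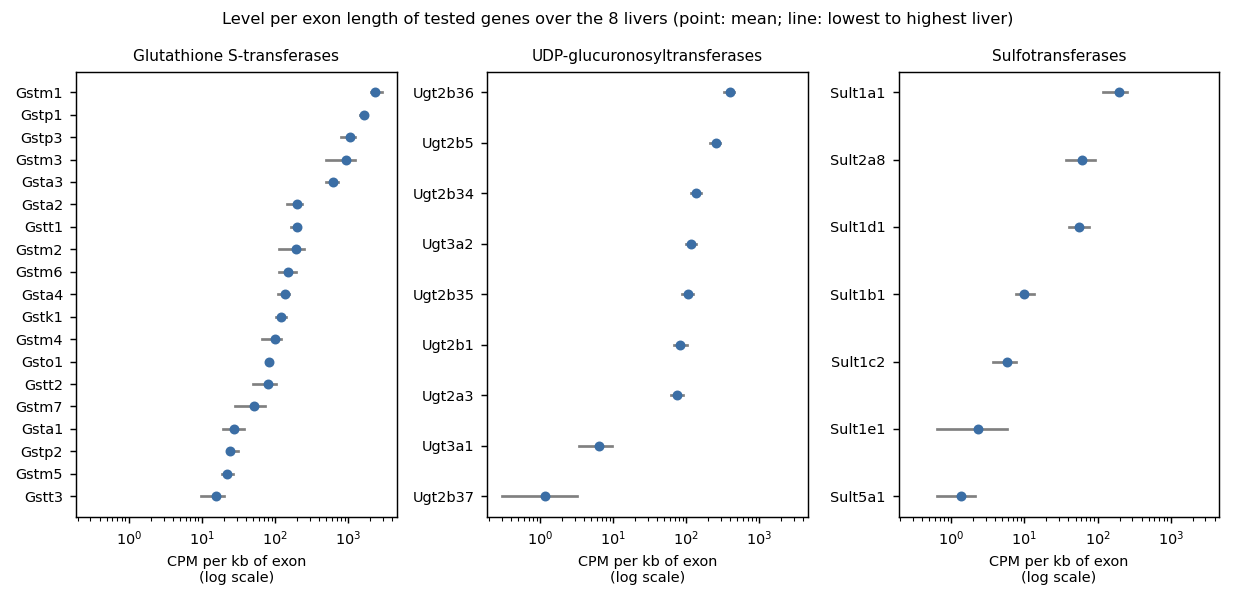
Level per kb of exon on a log scale for the tested genes of each family, except the UGT1A genes and Gstz1, as the mean (point) and the lowest to highest of the 8 livers (line). Gstm1, Ugt2b36 and Sult1a1 lead their families, at 2378, 400.2 and 197 CPM per kb.

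The 22 genes that were not tested had few or no reads. Among GST genes these were Gsto2 with 2 to 8 reads per liver and Gstt4 with 0 to 1. Among UGT genes, Ugt2a1 and Ugt2a2 had 0 reads in every liver, Ugt1a2 had 0 to 3, Ugt1a10 0 to 4, Ugt1a7c 2 to 11 and Ugt2b38 0 to 27. Of the SULT genes, Sult1c1, Sult2a6, Sult3a1, Sult3a2 and Sult6b2 had 0 reads in every liver. Sult2a4 had 0 to 1, Sult4a1 0 to 2, Sult2a2, Sult2a3 and Sult6b1 0 to 3, Sult2b1 0 to 4, Sult2a5 0 to 5, Sult2a1 0 to 6 and Sult2a7 1 to 8. In each liver a count of 0 allows up to 3 reads.

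GST values lay on both sides. Of the 20 tested, 12 were higher and 8 lower on average in Smo-KO livers, and 3 had an unadjusted p under 0.05: the theta-class Gstt2, higher, and the mu-class Gstm4 and Gstm7, lower. The 7 mu-class genes lie in a row on chromosome 3 (chr3:107895821-108044894, GRCm38, from the start of Gstm5 to the end of Gstm4, 149.1 kb). All but Gstm5 were lower on average, with a median log2 fold change of -0.31, and Gstm5 was higher by 0.17 ± 0.12 (SE, unadjusted p = 0.172). Genes of the other classes, Gstt2 and Gstt3 apart, differed by at most 0.16 on the log2 scale, each with an unadjusted p over 0.17.

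Gstm7 (chr3:107926334-107931817, minus strand) stood at 107, 82.3, 81.4 and 81.8 CPM in control livers 1 to 4 and at 80.3, 67.3, 41.0 and 68.1 CPM in Smo-KO livers 1 to 4. Every Smo-KO liver was below every control liver, although Smo-KO liver 1 was close to 3 of the controls, and control liver 1 stood above the rest. Its log2 fold change was -0.46 ± 0.17 (SE, unadjusted p = 0.019 and adjusted p = 0.27 in edgeR's test, exact permutation test, two-sided p = 0.0286). Gstm4 (chr3:108040408-108044894, minus strand) stood at 209, 172, 171 and 202 CPM in control livers and at 152, 149, 114 and 183 CPM in Smo-KO livers. Here Smo-KO liver 4 lay among the controls, and the log2 fold change was -0.33 ± 0.13 (SE, unadjusted p = 0.0244, adjusted p = 0.288).

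The more abundant mu-class genes had values on the same side. Gstm3 stood at 1438, 1330, 1151 and 1625 CPM in control and at 1229, 1133, 653 and 1237 CPM in Smo-KO livers (log2 fold change -0.38 ± 0.18, SE, unadjusted p = 0.051). With 1 liver left out the log2 fold change of Gstm3 ran from -0.46 (without Smo-KO liver 4) to -0.21 (without Smo-KO liver 3). Gstm1 stood at 4015, 3311, 2858 and 3560 CPM in control and at 2994, 3071, 2825 and 3369 CPM in Smo-KO livers (log2 fold change -0.17 ± 0.11, SE, unadjusted p = 0.162). Without control liver 1 the log2 fold change of Gstm1 was -0.08. For both genes the groups overlapped and edgeR's test with all livers was not passed. Gstm3 had an unadjusted p under 0.05 in DESeq2's test, without a filter and with the replicate number as a block. It also had one without control liver 3 or Smo-KO liver 1 or 4, and Gstm1 only without control liver 3. Gstm2 and Gstm6 had log2 fold changes of -0.31 ± 0.16 and -0.25 ± 0.13 (SE, unadjusted p = 0.0723 and 0.07).

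Summed over the class, mu GST reads were 6262, 5353, 4668 and 6030 CPM in control and 4919, 4833, 3933 and 5284 CPM in Smo-KO livers, of which Gstm1 is the largest part. Smo-KO liver 3 was the lowest liver for 6 of the 7 mu genes. The same liver was the lowest for 8 of all 20 tested GST genes and control liver 3 for 9. Of the 8 hepatocyte markers, Smo-KO liver 3 had the lowest value of 2, Tat, an enzyme of tyrosine breakdown (243 CPM against 562 to 1276 CPM in the other livers), and Cps1 (603 CPM). It had the highest value of 2 others, Apoa1 (5279 CPM) and Asgr1 (639 CPM), and the marker sum was not lowest there. The part of this liver in the mu-class values can be read from the fit without it: Gstm7 then had a log2 fold change of -0.29 with an unadjusted p still under 0.05, and Gstm4, at -0.22, no longer had one, nor did it without control liver 4. Without control liver 1, no mu gene had one, and without control liver 3, all but Gstm5 did.

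Gstt2 (chr10:75831114-75837424, minus strand), a theta-class enzyme that acts on small electrophiles, was the GST with the lowest p. It stood at 186, 140, 114 and 172 CPM in control livers and at 201, 203, 233 and 238 CPM in Smo-KO livers. The groups did not overlap, control liver 3 was the lowest, and the spread was wider among controls (153 ± 32.1 CPM, SD, n = 4) than among Smo-KO livers (219 ± 19.5 CPM). The log2 fold change was 0.52 ± 0.14 (SE, unadjusted p = 0.00236 and adjusted p = 0.16 in edgeR's test, adjusted p = 0.0327 in DESeq2's test, exact permutation test, two-sided p = 0.0286). It kept an unadjusted p under 0.05 whichever liver was left out. Of its tested neighbours in the theta cluster, Gstt1 had a log2 fold change of 0.10 ± 0.10 and Gstt3 of -0.16 ± 0.17 (SE, unadjusted p = 0.356 and 0.363).

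Alpha- and pi-class genes varied mostly between livers of 1 group. Gsta3 stood at 1030, 900.2, 767 and 1009 CPM in control and at 931, 1093, 981 and 1124 CPM in Smo-KO livers (log2 fold change 0.16 ± 0.11, SE, unadjusted p = 0.178). Gstp1 stood at 1412, 1238, 1204 and 1493 CPM in control and at 1377, 1315, 1388 and 1505 CPM in Smo-KO livers (0.06 ± 0.10, unadjusted p = 0.525). Gstp3 stood at 877, 730, 571 and 694 CPM in control and at 718, 789, 796 and 869 CPM in Smo-KO livers (0.14 ± 0.12, unadjusted p = 0.256). For all 3 the lowest liver was control liver 3 and the groups overlapped. Without that liver the log2 fold changes of Gsta3, Gstp1 and Gstp3 were 0.08, 0.02 and 0.05, and without control liver 1 that of Gstp3 was 0.25, with an unadjusted p under 0.05. Gstz1, which breaks down tyrosine intermediates, Gsto1, which reduces dehydroascorbate, and Gstk1, of mitochondria and peroxisomes, had log2 fold changes of 0.05 ± 0.09, 0.04 ± 0.09 and 0.02 ± 0.11 (SE). Over the whole family, summed GST reads were 10290 ± 1252 CPM in control and 9822 ± 762 CPM in Smo-KO livers (SD, n = 4 each).

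**Figure D3:**
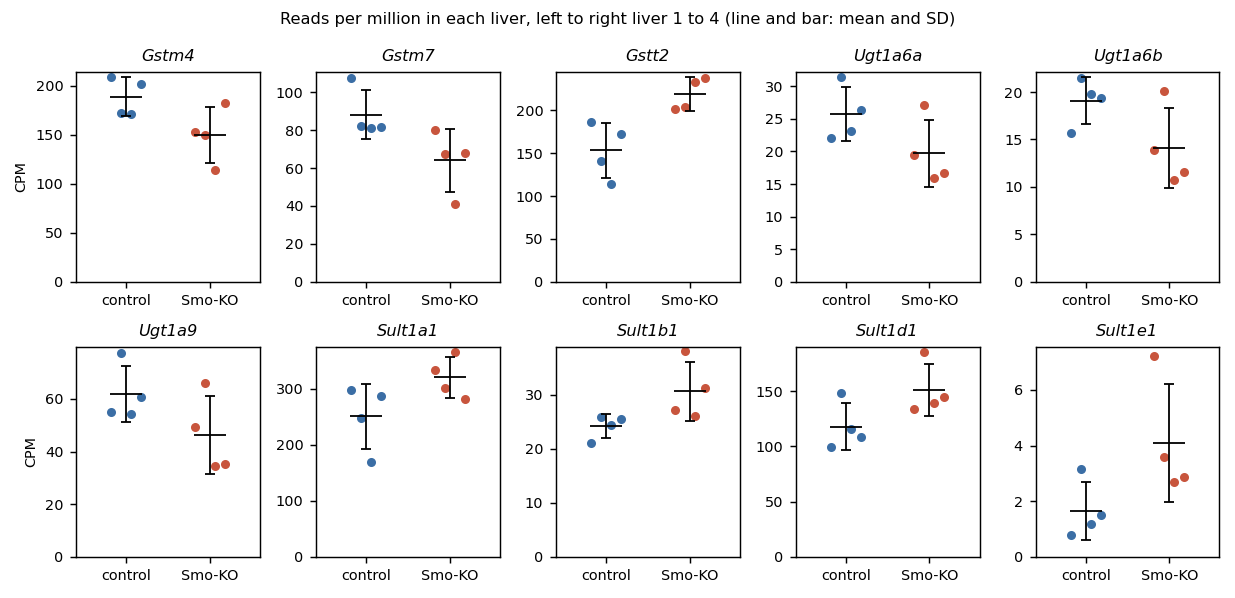
CPM in each liver (points, livers 1 to 4 from left to right) with the mean and SD of each group (line and bar) for the 10 transferases with an unadjusted p under 0.05; each vertical axis starts at 0. Only Gstm7, Gstt2 and Sult1b1 have groups that do not overlap, and Smo-KO liver 3 is the lowest point for Gstm4, Gstm7, Ugt1a6a, Ugt1a6b and Ugt1a9.

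Many GST genes are induced by Nrf2, a transcription factor that binds the antioxidant response element, so promoter windows were searched for it. RefSeq windows of 300 bases (250 before and 50 after the transcription start, GRCm38.p6) were present for 20 GST, 18 UGT and 17 SULT genes, and not for Gstt2, Gsta4, Ugt1a6b, Ugt3a2, Sult2a1, Sult2a2, Sult2a7 and Sult4a1. The letters TGACNNNGC, on either strand, occurred in 3 of 20 GST genes (15.0%), in 0 of 18 UGT and 0 of 17 SULT genes, and in 14.8% of the 18651 genes with a window. The matches are shown because they fall in GST genes whose values differed in direction. Capitals mark the match, which lies 121 to 113 bases before the start in Gsta3 (chr1:21240444-21240492, plus strand), 42 to 34 before it in Gstm5 (chr3:107895792-107895840, plus strand) and 129 to 121 before 1 of the 2 starts in Gstm7 (chr3:107931715-107931763, minus strand), where the printed stretch lies inside the annotated gene and the window of the other start has no match.
Gsta3: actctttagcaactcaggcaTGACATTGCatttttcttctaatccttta
Gstm5: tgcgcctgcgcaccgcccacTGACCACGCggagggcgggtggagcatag
Gstm7: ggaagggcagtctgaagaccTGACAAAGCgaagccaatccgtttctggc

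Of these 3 genes, Gstm7 was the one without overlap between the groups, on the lower side, and Gsta3 and Gstm5 were higher on average without passing the test. The match in Gstm5 overlaps with CACGC, the reverse complement of another motif, the xenobiotic response core GCGTG of the aryl hydrocarbon receptor. That core occurred on either strand in 6 of 20 GST genes (30.0%), 1 of 18 UGT (5.56%) and 3 of 17 SULT genes (17.6%), beside 41.5% of all genes with a window. The direct repeat DR1, a pair of AGGTCA with 1 base between, to which PPAR alpha and HNF4 alpha bind, occurred in no transferase window and in 0.0643% of all genes. A match of letters is a description only. The windows of Gstm4 held none of the 3 motifs.

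Among UGT genes, the lowest p-values lay in the UGT1A locus. Of the 14 tested, 5 were higher and 9 lower on average, and the 3 with an unadjusted p under 0.05 were Ugt1a6a, Ugt1a6b and Ugt1a9, all lower in Smo-KO livers. All 5 tested UGT1A genes were lower on average (median log2 fold change -0.38), and 60% of them had such a p. Of the 6 tested UGT2B genes 0 had one (median 0.04), beside 13.8% of all genes tested. Whether these subfamilies differ was not tested. The UGT1A genes lie on chromosome 1 (chr1:88055388-88220002), where the genes have most of their exons in common, so that 50.4% to 70.9% of the 100-base stretches of their transcripts are not unique. A read in the common exons cannot be assigned to 1 of these genes, and their counts are uncertain. In the annotation 39.4% to 45.4% of the exon bases of the other UGT1A genes belong to 1 gene alone, but only 222 of 2392 (9.28%) for Ugt1a6a, the lowest share of the 8.

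Ugt1a9, which acts on phenols, stood at 55.1, 77.5, 54.5 and 60.6 CPM in control and at 49.2, 66.1, 34.6 and 35.3 CPM in Smo-KO livers. The log2 fold change was -0.42 ± 0.19 (SE, unadjusted p = 0.047 and adjusted p = 0.351 in edgeR's test), and the unadjusted p was not under 0.05 with other size factors (RLE) or when every liver had to reach 10 counts. With 1 liver left out the log2 fold change of Ugt1a9 ran from -0.64 (without Smo-KO liver 2) to -0.29 (without control liver 2). Ugt1a6a, another enzyme for phenols, stood at 22.1, 31.3, 23.1 and 26.3 CPM in control and at 19.4, 27.1, 15.8 and 16.6 CPM in Smo-KO livers. In both genes Smo-KO livers 1, 3 and 4 lay below all controls, and Smo-KO liver 2 lay among them. The log2 fold change of Ugt1a6a was -0.38 ± 0.17 (SE, unadjusted p = 0.0412, adjusted p = 0.337), and -0.57 to -0.27 with 1 liver left out. Ugt1a6b stood at 15.7, 21.5, 19.8 and 19.4 CPM in control and at 13.9, 20.1, 10.7 and 11.6 CPM in Smo-KO livers, with a log2 fold change of -0.44 ± 0.18 (SE, unadjusted p = 0.0311, adjusted p = 0.309). With 1 liver left out that value ran from -0.66 to -0.33. The groups of Ugt1a6b overlapped in the same way, through Smo-KO liver 2. Ugt1a1, the bilirubin enzyme, stood at 24.7, 31.3, 22.6 and 23.7 CPM in control and at 25.0, 34.7, 17.8 and 16.1 CPM in Smo-KO livers, with a log2 fold change of -0.12 ± 0.21 (SE, unadjusted p = 0.557).

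The summed level of the locus had the same overlap. The UGT1A sum was 119, 165, 123 and 133 CPM in control livers and 111, 150, 80.6 and 80.7 CPM in Smo-KO livers. The lowest value of each of the 5 genes fell in Smo-KO liver 3 or 4. No UGT gene had an unadjusted p under 0.05 once control liver 2, control liver 4, or Smo-KO liver 1, 3 or 4 was left out. Without Smo-KO liver 2 there were 5. Abcc2, the canalicular pump for glucuronides, had its lowest values in Smo-KO livers 3 and 4, at 140 and 136 CPM against 188 to 278 CPM in the others. Its log2 fold change was -0.30 ± 0.18 (SE, unadjusted p = 0.115 in edgeR's test). Abcc3, another exporter, went the other way, with its highest values in these livers, at 323.8 and 310.4 CPM against 229.1 to 309.7 CPM in the others. Whether the exporters follow the UGT1A genes was not tested.

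**Figure D4:**
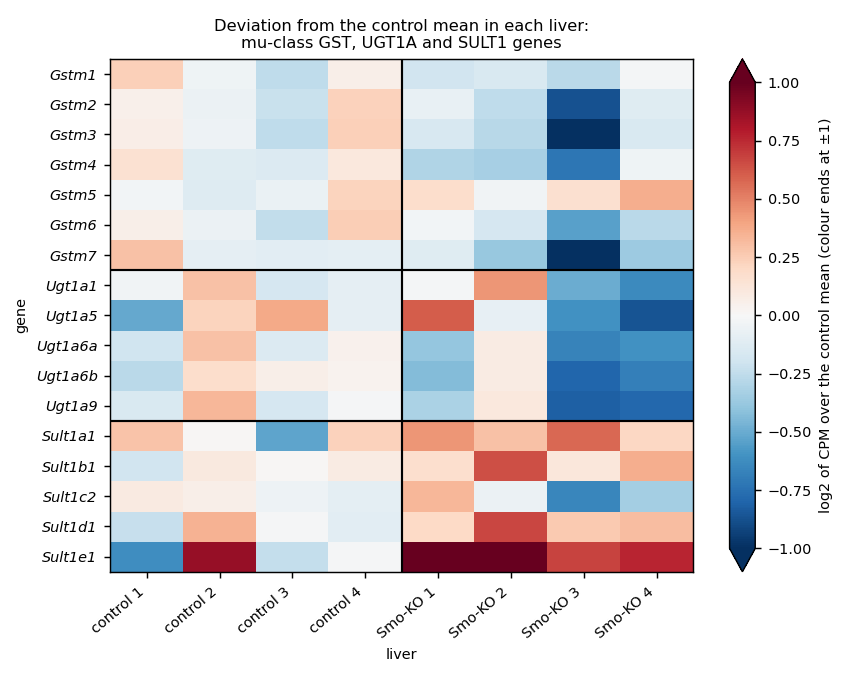
Deviation from the control mean in each liver (columns) for the tested mu-class GST, UGT1A and SULT1 genes (rows). Values are log2 of CPM with 0.5 added, minus the mean of the same log2 values in control livers, which shrinks the deviations of genes with few reads. Blue is below and red above the control mean, and the colour ends at 1 in either direction. Mu GST genes other than Gstm5 are bluest in Smo-KO liver 3, UGT1A genes in Smo-KO livers 3 and 4, and Sult1a1, Sult1b1, Sult1d1 and Sult1e1 are red in all 4 Smo-KO livers.

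Counts of the UGT1A genes differ widely, also between Ugt1a10 and Ugt1a9, whose promoter windows are partly alike. These are counts per gene, and reads on the first exons alone were not counted. Ugt1a10 had 0 to 4 reads per liver while Ugt1a9 had the most reads of the locus, and their promoter windows share a run of 32 identical bases, against at most 11 for any other pair of the UGT1A windows. The run is printed in capitals with 40 bases on either side, a fixed length, so the print does not show where the likeness ends. In Ugt1a10 the run reaches into the annotated gene, which starts at chr1:88055388, and in Ugt1a9 it lies outside the annotated gene. It lies 52 to 21 bases before the start in Ugt1a9 (chr1:88070687-88070798, plus strand, GRCm38.p6) and 32 to 1 bases before it in Ugt1a10 (chr1:88055339-88055450, plus strand).
Ugt1a9: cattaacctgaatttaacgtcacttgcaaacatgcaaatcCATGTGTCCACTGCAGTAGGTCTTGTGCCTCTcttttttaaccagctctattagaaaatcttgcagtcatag
Ugt1a10: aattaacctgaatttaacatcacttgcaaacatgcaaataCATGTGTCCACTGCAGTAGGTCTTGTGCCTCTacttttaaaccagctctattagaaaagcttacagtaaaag

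The abundant UGT genes outside the UGT1A locus had close group means. Ugt2b36 stood at 741, 782, 705 and 736 CPM in control and at 628, 848, 814 and 792 CPM in Smo-KO livers (log2 fold change 0.06 ± 0.10, SE, unadjusted p = 0.585). Ugt2b5 stood at 474, 431, 514 and 459 CPM in control and at 398, 543, 471 and 487 CPM in Smo-KO livers (0.02 ± 0.10, unadjusted p = 0.88). In both, Smo-KO livers 1 and 2 were the lowest and the highest of all 8, so that the spread within the group exceeded the difference between groups. Ugt2b34 (0.09 ± 0.11), Ugt2b35 (-0.13 ± 0.10) and Ugt3a2 (-0.08 ± 0.11) had unadjusted p-values of 0.444, 0.231 and 0.486. With 1 liver left out their log2 fold changes ran from 0.01 to 0.16, from -0.17 to -0.05 and from -0.18 to -0.02. That of Ugt2b36 ran from 0.01 to 0.15. Smo-KO liver 2 was the highest liver for 6 of the 14 tested UGT genes. Summed UGT reads were 2937 ± 136 CPM in control and 2931 ± 311 CPM in Smo-KO livers (SD, n = 4 each).

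SULT values lay mostly on the higher side in Smo-KO livers. Of the 7 tested, 6 were higher on average, and 4 had an unadjusted p under 0.05, Sult1a1, Sult1b1, Sult1d1 and Sult1e1, all higher and all of the SULT1 subfamily. The fifth tested SULT1 gene, Sult1c2, stood at 11.8, 11.5, 10.6 and 10.3 CPM in control and at 14.0, 10.6, 6.83 and 8.64 CPM in Smo-KO livers, with a log2 fold change of -0.14 ± 0.19 (SE, unadjusted p = 0.487). Sult1b1, Sult1d1 and Sult1e1 are neighbours within 78.3 kb of chromosome 5 (chr5:87513339-87591594), next to the cluster of UGT2 genes (chr5:86889767-87490871). In that cluster 0 of 7 tested genes had an unadjusted p under 0.05, beside 13.8% of all genes tested. Whether the clusters differ was not tested. Sult1a1 lies apart, on chromosome 7 (chr7:126672865-126676432), and Sult1c2 on chromosome 17.

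Sult1a1, the most abundant, stood at 298, 248, 170 and 287 CPM in control and at 333, 300.3, 365 and 282 CPM in Smo-KO livers. Control liver 3 was below all others and Smo-KO liver 4 lay among the controls. The log2 fold change was 0.35 ± 0.15 (SE, unadjusted p = 0.04 and adjusted p = 0.334 in edgeR's test) and was 0.21 without control liver 3. Without that liver, or without control liver 2 or Smo-KO liver 1 or 3, the unadjusted p was no longer under 0.05.

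Sult1b1 stood at 21.1, 25.9, 24.3 and 25.5 CPM in control and at 27.2, 38.1, 26.1 and 31.2 CPM in Smo-KO livers. The groups did not overlap, but the lowest Smo-KO liver and the highest control liver were less than 1 CPM apart. Its log2 fold change was 0.34 ± 0.13 (SE, unadjusted p = 0.0196 and adjusted p = 0.273 in edgeR's test, exact permutation test, two-sided p = 0.0286). Sult1d1 stood at 99.2, 148, 116 and 108 CPM in control and at 134, 186, 140 and 144 CPM in Smo-KO livers, where control liver 2 lay among the Smo-KO livers (log2 fold change 0.36 ± 0.14, SE, unadjusted p = 0.0213, adjusted p = 0.282). For both genes Smo-KO liver 2 was the highest. Without it the log2 fold changes of Sult1b1 and Sult1d1 were 0.22 and 0.24 and neither had an unadjusted p under 0.05, nor had they without control liver 1, nor Sult1d1 without control liver 4.

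Sult1e1, the estrogen sulfotransferase, had few reads: 0.794, 3.15, 1.19 and 1.48 CPM in control (7 to 30 reads) and 7.22, 3.60, 2.68 and 2.88 CPM in Smo-KO livers (22 to 70 reads). Smo-KO liver 1 was the highest and control liver 2 lay among the Smo-KO livers. The log2 fold change of 1.31 ± 0.41 (SE, unadjusted p = 0.00753 and adjusted p = 0.217 in edgeR's test) was the highest of all tested transferases, and was 0.88 without Smo-KO liver 1. Because control liver 1 had 7 reads, the gene was left untested when every liver had to reach 10.

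The summed SULT1 level was 431, 437, 322 and 433 CPM in control and 515, 538, 540 and 470 CPM in Smo-KO livers, without overlap between the groups, and Sult1a1 made up most of it. Of the other tested SULT genes, Sult2a8 stood at 138, 141, 121 and 83.7 CPM in control and at 102, 208, 166 and 122 CPM in Smo-KO livers (log2 fold change 0.31 ± 0.21, SE, unadjusted p = 0.161, and 0.11 without Smo-KO liver 2), with wide spread in both groups. Sult5a1 had a log2 fold change of 0.25 ± 0.33 (SE, unadjusted p = 0.454). All SULT genes together summed to 533 ± 62.6 CPM in control and 672 ± 71.5 CPM in Smo-KO livers (SD, n = 4 each), a ratio of 1.26.

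The 3 SULT genes whose windows held the xenobiotic response core were Sult1b1, Sult1d1 and Sult2b1, the last with 0 to 4 reads per liver. The first pair is shown, with the core in capitals, because both genes had an unadjusted p under 0.05. In Sult1b1 the core lies 196 to 192 bases before 1 of its transcription starts (chr5:87536394-87536438, minus strand, GRCm38.p6). That printed stretch lies inside the annotated gene, and the window of the other start has no match. In Sult1d1 the core lies, as the reverse complement, 47 to 43 bases before the start (chr5:87569029-87569073, minus strand).
Sult1b1: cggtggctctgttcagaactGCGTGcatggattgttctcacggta
Sult1d1: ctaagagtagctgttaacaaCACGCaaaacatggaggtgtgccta

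The genes that supply, follow or regulate the transferases were read from 7 lists of 52 symbols, 50 of them in the count lists and 45 tested. Of these, 12 had an unadjusted p under 0.05 (26.7%, beside 13.8% of all genes), 6 on the higher and 6 on the lower side, and 8 had groups that did not overlap, beside 7.37%. At an adjusted p of 0.05, edgeR's test called 0 of the 45 and DESeq2's test 1, Oplah.

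Glutathione supply held 4 of the 12. Gclc, the catalytic subunit of the enzyme that starts glutathione synthesis, stood at 445, 559, 522 and 572 CPM in control and at 458, 382, 362 and 443 CPM in Smo-KO livers (log2 fold change -0.35 ± 0.11, SE, unadjusted p = 0.00662, adjusted p = 0.211). Gsr, which returns oxidized glutathione to its reduced form, stood at 206, 208, 221 and 259 CPM in control and at 195, 179, 167 and 167 CPM in Smo-KO livers (-0.34 ± 0.10, unadjusted p = 0.00433, adjusted p = 0.183). Gsr groups did not overlap, whereas control liver 1 overlapped for Gclc. The other synthesis genes, Gclm and Gss, had log2 fold changes of -0.15 ± 0.09 and -0.13 ± 0.09 (SE, unadjusted p = 0.122 and 0.154).

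On the breakdown side of the cycle, Oplah, which opens 5-oxoproline to glutamate, stood at 122, 123, 115 and 117 CPM in control and at 145, 207, 238 and 166 CPM in Smo-KO livers. Controls lay within a narrow band and every Smo-KO liver was above it (log2 fold change 0.66 ± 0.13, SE, unadjusted p = 0.000284, adjusted p = 0.116 in edgeR's and 0.00202 in DESeq2's test). Chac1, which cleaves glutathione, had a log2 fold change of -0.68 ± 0.27 (SE, unadjusted p = 0.027), from 3.56 to 9.87 CPM in control and 4.02 to 4.80 CPM in Smo-KO livers, so that the Smo-KO values lay inside the control range. The unadjusted p of Chac1 was no longer under 0.05 without control liver 1 or 3 or Smo-KO liver 2 or 3.

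Among the glutathione transferases outside the Gst symbols and the processing enzymes, Hpgds, the sigma-class prostaglandin D synthase, stood at 7.94, 12.3, 10.7 and 12.1 CPM in control and at 12.6, 13.9, 14.8 and 15.7 CPM in Smo-KO livers (log2 fold change 0.40 ± 0.15, SE, unadjusted p = 0.0195). Nat8, which acetylates cysteine conjugates to mercapturic acids, stood at 33.2, 25.7, 28.3 and 37.5 CPM in control and at 55.0, 38.2, 42.4 and 43.2 CPM in Smo-KO livers (0.52 ± 0.14, unadjusted p = 0.00254, adjusted p = 0.163). In neither gene did the groups overlap, but the unadjusted p of Hpgds was not under 0.05 without Smo-KO liver 4. Mgst1, the abundant microsomal transferase, had a log2 fold change of 0.22 ± 0.11 (SE, unadjusted p = 0.065). For UDP-glucuronate, the cofactor of the UGT family, 0 of 4 genes had an unadjusted p under 0.05, beside 13.8% of all genes tested. Ugdh, which makes this cofactor, had a log2 fold change of -0.16 ± 0.09 (SE, unadjusted p = 0.104).

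Sulfate activation showed both directions. Papss1 and Papss2 are the enzymes that make PAPS. Papss1 stood at 35.7, 28.9, 33.2 and 31.5 CPM in control and at 24.5, 26.7, 21.5 and 28.0 CPM in Smo-KO livers, without overlap (log2 fold change -0.36 ± 0.11, SE, unadjusted p = 0.006, adjusted p = 0.204). Papss2, the more abundant in reads, stood at 122, 117, 82.8 and 125 CPM in control and at 116, 150, 128 and 161 CPM in Smo-KO livers, with overlap (0.31 ± 0.14, unadjusted p = 0.0437, adjusted p = 0.343). Control liver 3 was the lowest for Papss2, as for Sult1a1, and without it the log2 fold change of Papss2 was 0.20. Its unadjusted p was not under 0.05 without control liver 2 or 3 or Smo-KO liver 2 or 4. Slc26a1, a sulfate transporter, stood at 197, 165, 181 and 156 CPM in control and at 152, 136, 89.5 and 118 CPM in Smo-KO livers, without overlap (-0.49 ± 0.14, unadjusted p = 0.00426, adjusted p = 0.182).

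**Figure D5:**
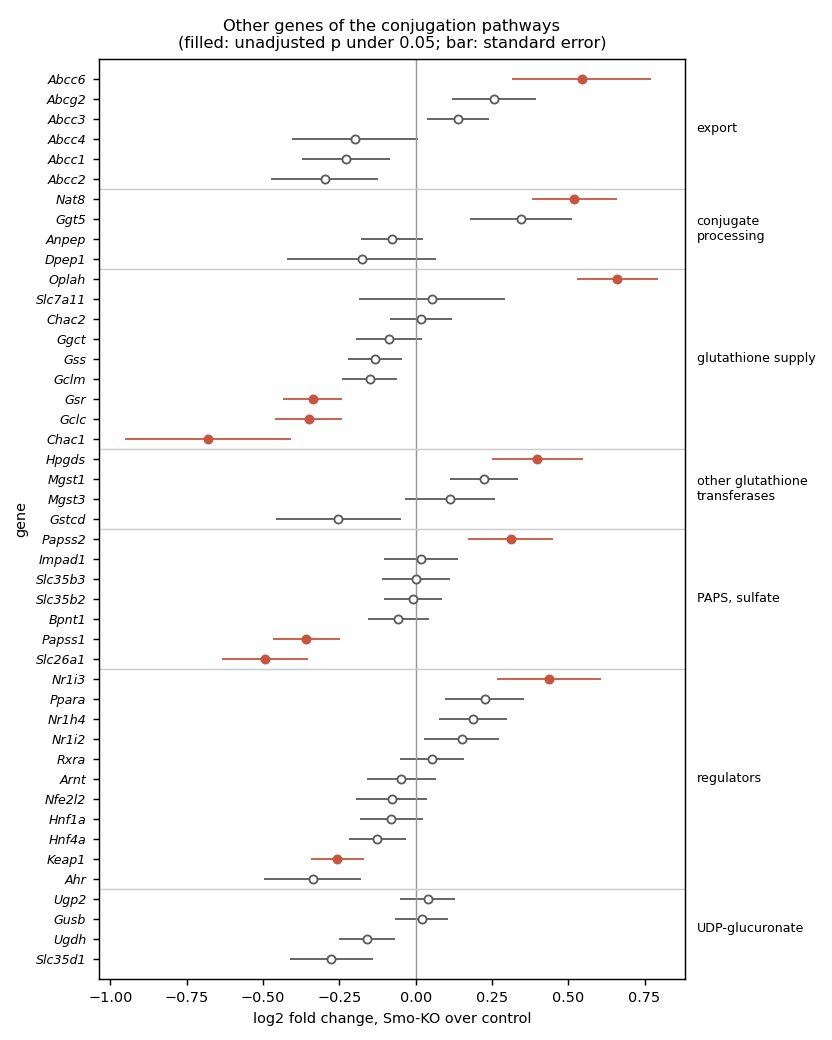
Log2 fold change of Smo-KO over control livers (horizontal axis) for the 45 tested genes of the 7 lists, grouped by list, with standard errors as bars and filled points for an unadjusted p under 0.05. Of the 12 filled points, 6 lie on each side, and the UDP-glucuronate list has none.

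Among exporters 1 of 6 genes had an unadjusted p under 0.05 (16.7%, beside 13.8% of all genes tested). This was Abcc6, a transporter of the basolateral membrane, at 120, 106, 53.2 and 70.03 CPM in control and 112, 106, 118 and 174 CPM in Smo-KO livers (log2 fold change 0.54 ± 0.23, SE, unadjusted p = 0.0338). The groups overlapped, and the log2 fold change of Abcc6 was 0.37 without control liver 3 and 0.35 without Smo-KO liver 4. Its unadjusted p was not under 0.05 without either of these livers, without control liver 4, or in DESeq2's test. Of 11 regulators, 2 had such a p (18.2%, beside 13.8% of all genes tested) and groups without overlap (beside 7.37%). Nr1i3 (CAR), a receptor that induces UGT, GST and SULT genes, stood at 172, 135, 84.8 and 158 CPM in control and at 176, 173, 185 and 209 CPM in Smo-KO livers (0.44 ± 0.17, unadjusted p = 0.0244, adjusted p = 0.288). Control liver 3 was again the lowest, and without it the log2 fold change of Nr1i3 was 0.27. Without Smo-KO liver 4 its unadjusted p was not under 0.05. Keap1, which holds Nrf2 back, stood at 107, 113, 112 and 97.1 CPM in control and at 95.4, 94.1, 85.9 and 84.3 CPM in Smo-KO livers (-0.26 ± 0.09, unadjusted p = 0.0113, adjusted p = 0.24). Nfe2l2, which encodes Nrf2, had a log2 fold change of -0.08 ± 0.12 and Ahr, the aryl hydrocarbon receptor, of -0.34 ± 0.16 (SE, unadjusted p = 0.508 and 0.0536).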

How the data were processed

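Liver RNA (Trizol, NEB Next Ultra kit, NovaSeq) gave 1 list of whole-number counts per gene symbol and liver, as deposited by the authors without normalization. The submitters' processing notes name fastp, STAR 2.7.5, featureCounts 2.0.1 and GRCm38, but the lists end in the entries that htseq-count writes, so the counter is not settled. Annotation, strand and multi-mapping options are not given in the sources used here. Reads on no feature (7.56% to 9.68%) and on more than 1 gene (2.45% to 2.61%) were left out.

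Counts were tested between the groups with the quasi-likelihood test of edgeR 4.0.16 (R 4.3.3) after filterByExpr and TMM scaling, without covariates, p-values being adjusted by Benjamini-Hochberg over all 12977 genes, and alternatively with DESeq2 1.42.0. Standard errors were derived from the F statistic. Exact permutation tests were two-sided over 70 assignments. CPM use library sizes after TMM scaling. The procedure was tested on simulated data, whose planted changes were larger than those of the called transferases other than Sult1e1. That check therefore does not cover changes of their size. Coordinates, exon lengths and shared 100-base stretches came from GENCODE M21 (GRCm38), and promoters from RefSeq.

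The 3 families, the gene lists and the alternatives were chosen with earlier results of these data known. Named were Smo, transferases with an unadjusted p under 0.05 or groups without overlap, the 5 of each family with the highest level per length, listed pathway genes with an unadjusted p under 0.05, and untested transferases; other genes were named after their values were seen. By the paper's description each sample is the liver of a separate mouse, so p-values measure the spread between these mice. Nothing says how the mice relate to each other beyond that. Within a group no 2 libraries were copies (chi-square per degree of freedom 7.76 to 17.6).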

Additional observations from a re-analysis of the deposited data

Results flagged for a closer look

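In 3 of the 104 groups of 4 livers examined, 1 liver stood far from the other 3 by Dixon's criterion, where chance gives about 1 in 20, or 5.2. Gstm7 was 107 CPM in control liver 1 and 81.4 to 82.3 CPM in the other controls. Ugt3a2 was 314 CPM in Smo-KO liver 2 and 235 to 248 CPM in the other Smo-KO livers. The summed SULT1 level was 322 CPM in control liver 3 and 431 to 437 CPM in the other controls.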

How the results depend on the processing

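Genes with an adjusted p under 0.05 numbered 0 in edgeR's test, 163 in DESeq2's test, 61 without a filter and 0 to 78 with 1 liver left out. GST genes with an unadjusted p under 0.05 numbered 3, but 5 without a filter and 2 to 7 with 1 liver left out. The 3 UGT genes became 0 to 5 and the 4 SULT genes 2 to 4 with 1 liver left out, and the 12 pathway genes 9 to 18, while the share of all genes with such a p moved from 13.8% to 11.4% without a filter and to between 9.5% and 17.8% with 1 liver left out. Other size factors (RLE) and a minimum of 10 counts in every liver moved none of these counts by over 1.5 times, but Ugt1a9 lost its unadjusted call under both. Of the 10 transferases with such a call, Gstt2 kept it in all 13 alternatives and Ugt1a9 in 6. The calls held in 98 of 130 cases, among which Sult1e1 was not tested at 10 counts in every liver. For the 12 pathway genes they held in 142 of 156. Log2 fold changes of Smo were -0.87 in DESeq2's test (adjusted p = 0.00613), -0.88 without a filter (adjusted p = 0.0385) and -0.997 to -0.81 with 1 liver left out, with adjusted p from 0.00613 to 0.219 over all alternatives. Of 34 named genes besides Smo, 2 changed sign: Sult1c2 was 0.00477 without Smo-KO liver 3 (range with 1 liver left out -0.34 to 0.00477), and Ugt2b5 was -0.0192 without control liver 2 and -0.0548 without Smo-KO liver 2 (range -0.0548 to 0.0986). An adjusted p of 0.05 was passed in 4 cases, by Gstt2 and Oplah. The causes were not tested. Of the SULT family, 14 genes had too few reads to be tested at this depth.

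With the replicate number as a block, 8 genes had an adjusted p under 0.05, and 6 GST, 5 UGT and 4 SULT genes an unadjusted one, as had 16.3% of all genes. Deviations from group means correlated by 0.104, 0.187, 0.0611 and 0.113 between livers of the same number, and by -0.205 to 0.157 between livers of different number. Control livers 2, 3 and 4 correlated best with their own number. Control liver 1 did so with Smo-KO liver 4 (0.157), and Smo-KO liver 3 with control liver 2 (0.133). Because not every liver correlated best with its own number, the numbers were not taken to pair the mice. Whether they do was not tested.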

Other observations

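Ugt2b37 and Ugt2b38, neighbouring genes of the UGT2 cluster with few reads, both had their highest value in Smo-KO liver 3. Ugt2b37 had 50 reads there and 5 to 32 in the other 7 livers, and Ugt2b38 had 27 reads there and 0 to 5 in the others. Without a filter on low counts Ugt2b38 had an unadjusted p under 0.05 in edgeR's test, and Ugt2b37 did not. Ugt2b38 shares 24.2% of its 100-base stretches with other genes, mainly Ugt2b5, which stood at 471 CPM in that liver, within the range of the other livers.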
